A study of Mus musculus with 48 samples.

Results

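The hippocampus and the frontal cortex of adult wild-type (WT) mice were compared at postnatal week (PWK) 14. The comparison used 8 of the 48 libraries of a bulk RNA sequencing study of *Cyfip2*+/- mice and their WT littermates, namely the 4 WT hippocampal and the 4 WT cortical libraries of that age. The mice were of strain C57BL/6N and received no treatment, and *Cyfip2*, which encodes a subunit of the WAVE complex that drives branched actin assembly, was intact in all 8 libraries. Tissue from both hemispheres was taken from 4 mice, so that each mouse gave 1 library per region. Libraries were assigned to a region by the sample records, and the same replicate number was read as the same mouse only in an alternative paired analysis. Both sexes entered the study according to its methods, and the sample records give no sex. *Ddx3y*, a Y-linked gene looked up after the values were seen, was 1340 to 1609 in all 8 libraries.

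The hippocampus is a 3-layered cortex whose excitatory cells lie in separate fields. Granule cells of the dentate gyrus send mossy fibers to CA3, CA3 pyramidal cells project to CA1, and CA1 projects to the subiculum. The frontal cortex is a 6-layered neocortex in which upper layers connect cortical areas and deep layers project to subcortical targets. Both regions hold the same broad classes of interneurons, glia and vascular cells, and the dentate gyrus keeps adding neurons in adult mice. A bulk value is an average over all of these cells, so fewer cells of a type and less RNA per cell cannot be told apart.

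Values are normalized counts, that is, read counts per gene scaled between libraries by the authors. Their sums ran from 31062064 to 31870321 in the hippocampus and from 32177689 to 32805525 in the cortex, and the sequencing depth, estimated from the spacing of low values, was 26872108 to 33873570 and 27347898 to 31574134 read pairs (exact permutation test, two-sided, p = 1). The lower sums of the hippocampus did not overlap those of the cortex (exact permutation test, two-sided, p = 0.0286, the smallest value that 4 against 4 allows). Correlations of log2 values between libraries were 0.981 to 0.988 within a region (12 pairs) and 0.947 to 0.958 between regions (16 pairs). The first principal component held 61.1% of the variance and separated the regions. Hippocampus replicates 1, 3 and 4 and cortex replicate 1 carried high levels of choroid plexus RNA (summed level of 15 marker genes 43334 to 173487, against 5911 to 8769 in the other 4 libraries). Hippocampus replicate 2, with a low sum, was still above cortex replicates 2 to 4 for 11 of the 15 genes. For most gene lists, counts of calls without the 4 libraries rich in this RNA stand beside the list below or after the choroid plexus genes.

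The regional difference was broad and mostly small. Of 17006 genes tested, 6084 (35.8%) were called, meaning an adjusted p below 0.05 in limma, with 2889 (17.0%) higher in the hippocampus and 3195 (18.8%) higher in the cortex. Among the called genes, 4498 differed by less than 2-fold, and called differences had a median size of 0.54 on the log2 scale. A difference of at least 2-fold was called for 712 genes higher in the hippocampus (4.19%) and 874 higher in the cortex (5.14%), and one of at least 4-fold for 257 and 240. The 2 groups of 4 libraries did not overlap for 6079 genes (35.7%). The shares of 17.0% and 18.8% are the background for the list counts below, other than those of alternative fits. Fold changes are hippocampus minus cortex on the log2(normalized count + 1) scale throughout, and they understate the difference of genes with low values. Of 14781 protein coding genes, 37.3% were called, and of 551 long intergenic noncoding RNA genes, 33.4%. Without the 4 libraries rich in choroid plexus RNA, which left 1 hippocampal against 3 cortical libraries, 1198 and 1795 genes were called.

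**Figure D1:**
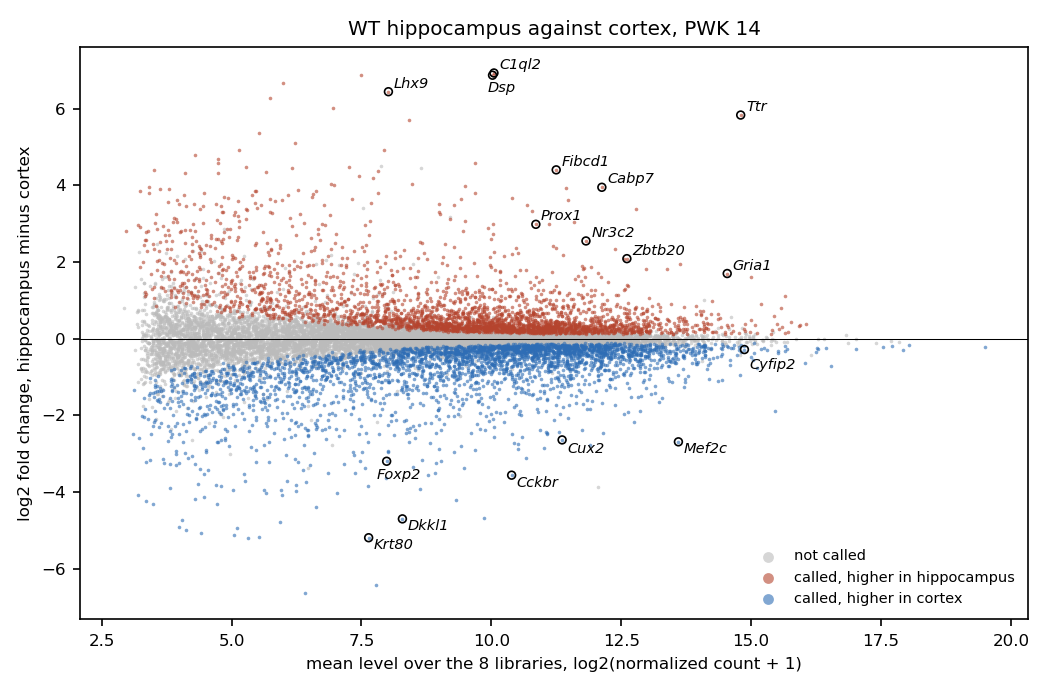
Each point is 1 of the 17006 genes tested. The x axis gives its mean level over the 8 libraries as log2(normalized count + 1) and the y axis the log2 fold change, hippocampus minus cortex. Red and blue points were called higher in the hippocampus or the cortex, grey points were not called, and circles mark genes described in the text. *C1ql2* and *Dsp* stand at 6.93 and 6.87, *Krt80* at -5.19.

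The most abundant transcripts differed little between the regions. The mitochondrial genome supplied 5 of the 6 protein coding genes that made up the top 5 of each region. *mt-Co1*, a subunit of cytochrome c oxidase, was 690665, 715328, 670721 and 664527 in the hippocampus and 813268, 799600, 801241 and 784299 in the cortex and was lower in the hippocampus (log2 fold change -0.22 ± 0.06 (SE), adjusted p = 0.0122), a difference that quantile normalization sets to 0. *Camk2a*, the alpha subunit of the calcium and calmodulin dependent kinase of excitatory synapses, had values of 132590, 138477, 139384 and 122797 in the hippocampus and 134958, 141859, 124321 and 131338 in the cortex (log2 fold change 0.00 ± 0.06 (SE), adjusted p = 0.984). These ranges overlapped throughout, and the difference lay well within the spread of the libraries.

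Of the 15 protein coding genes with the largest difference toward the hippocampus, among those with a mean of at least 200 there and no overlap between the groups, the 14 reported were *C1ql2*, *Dsp*, *Lhx9*, *Krt2*, *Slc9a4*, *Spink8*, *Npy2r*, *Gpr101*, *Fibcd1*, *Lefty1*, *Olfm4*, *Il16*, *Cabp7* and *Shisa6*. Their log2 fold changes ran from 6.93 to 3.93. *C1ql2* (ENSMUSG00000036907, chr1:120340582-120343174 in GRCm38), which encodes a secreted C1q-like protein of the mossy fiber synapse, was 2201, 1945, 2001 and 2258 in the hippocampus and 18.9, 15.4, 24.3 and 9.59 in the cortex (log2 fold change 6.93 ± 0.22 (SE), adjusted p = 7.22e-09). Every hippocampal library lay far above every cortical one, with a ratio of the means of 123. *Lhx9*, a LIM homeobox transcription factor, was 554, 504, 440 and 546 in the hippocampus and 3.86, 2.07, 8.53 and 7.35 in the cortex (log2 fold change 6.44 ± 0.32 (SE), adjusted p = 1.23e-07). *Dsp* encodes desmoplakin, a linker protein of desmosomes, and was 1883, 1916, 2652 and 1765 in the hippocampus and 70.2, 7.96, 12.2 and 9.70 in the cortex (log2 fold change 6.87 ± 0.53 (SE), adjusted p = 2.89e-06). Cortex replicate 1 was the highest of the cortical libraries for *Dsp*, at 70.2 against at most 12.2 in the others, and still lay far below every hippocampal library.

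Several of these genes encode membrane proteins. *Npy2r*, the Y2 receptor for neuropeptide Y, was 1582, 1660, 1448 and 1587 in the hippocampus and 56.3, 57.1, 93.6 and 56.3 in the cortex (log2 fold change 4.59 ± 0.16 (SE), adjusted p = 9.84e-09). *Shisa6*, an auxiliary subunit of AMPA receptors, was 4651, 5314, 6283 and 4502 in the hippocampus and 342, 358, 341 and 305 in the cortex (log2 fold change 3.93 ± 0.10 (SE), adjusted p = 1.56e-09). *Cabp7*, a calcium binding protein, had the smallest adjusted p of the 15, with 7925, 7991, 9125 and 8553 in the hippocampus and 496, 638, 527 and 519 in the cortex (log2 fold change 3.95 ± 0.08 (SE), adjusted p = 5.82e-10). In each of these genes the 4 hippocampal values stood far above all cortical ones, and those of *Shisa6* ran from 4502 to 6283. *Slc9a4*, a sodium-proton exchanger, was 672 ± 102 in the hippocampus and 12.5 ± 5.11 in the cortex (mean ± SD, n = 4 each, log2 fold change 5.70). *Olfm4*, a secreted olfactomedin protein, was uneven in the hippocampus, with 159, 162, 446 and 141, against 5.91 to 18.6 in the cortex (log2 fold change 4.03 ± 0.43 (SE), adjusted p = 3.22e-05). Hippocampus replicate 3 alone raised its mean, and the other 3 libraries remained above all cortical ones.

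Of the 15 genes with the largest difference toward the cortex under the same rule, the 14 reported were *Krt80*, *Dkkl1*, *Igfn1*, *Rasgef1c*, *Ovol2*, *Myl4*, *Adam33*, *Tnnc1*, *Cckbr*, *Adra1b*, *Mei1*, *Col24a1*, *Ccn4* and *Gm11549*, with log2 fold changes of -5.19 to -3.36. *Krt80*, a keratin, was 425, 325, 322 and 474 in the cortex against 13.8, 5.69, 10.5 and 9.35 in the hippocampus (log2 fold change -5.19 ± 0.25 (SE), adjusted p = 9.75e-08). *Cckbr*, the receptor for cholecystokinin that predominates in the brain, was 2364, 2629, 2484 and 2400 in the cortex against 257, 244, 142 and 209 in the hippocampus (log2 fold change -3.56 ± 0.16 (SE), adjusted p = 4.98e-08). *Adra1b*, an alpha-1 adrenergic receptor, was 814 ± 72.5 in the cortex against 68.8 ± 8.25 in the hippocampus (mean ± SD) (log2 fold change -3.55 ± 0.12 (SE), adjusted p = 8.71e-09). Cortical values of *Cckbr* and *Adra1b* stood close together, and the regions were separated by a wide gap. The list also holds proteins of the contractile apparatus. *Myl4*, a myosin light chain, was 739 ± 100 in the cortex against 47.8 ± 9.96 in the hippocampus (mean ± SD, n = 4 each, log2 fold change -3.93), and *Tnnc1*, troponin C of slow muscle, was 465 ± 59.3 and 38.2 ± 16.4 (log2 fold change -3.65). *Col24a1*, a fibrillar collagen, had a large standard error, with 194, 412, 210 and 373 in the cortex against 35.8, 27.0, 4.79 and 62.2 in the hippocampus (log2 fold change -3.51 ± 0.61 (SE), adjusted p = 0.000968).

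Markers of the hippocampal fields were called higher in the hippocampus more often than in the cortex. The lists were chosen with earlier results of these data known, so they give no independent check of the region labels. Of 20 dentate granule cell markers tested, 11 were called higher in the hippocampus and 2 higher in the cortex (median log2 fold change 0.74, against 0.01 over all genes tested). *Prox1* (ENSMUSG00000010175, chr1:190118035-190170714), the homeobox factor that specifies granule cells, was 3252, 3520, 3514 and 2882 in the hippocampus and 410, 431, 387 and 431 in the cortex (log2 fold change 2.98 ± 0.07 (SE), adjusted p = 1.44e-09). Its cortical level was low but steady, and the ratio of the means was 7.93. *Il16*, a cytokine precursor, was 1404, 1351, 1447 and 1224 in the hippocampus and 80.4, 92.5, 90.4 and 79.4 in the cortex (log2 fold change 3.97 ± 0.09 (SE), adjusted p = 7.3e-10), and *Lct*, lactase, was 1030 to 1436 in the hippocampus against 82.9 to 131 in the cortex (log2 fold change 3.65). *Tdo2*, tryptophan dioxygenase, was 155, 159, 42.7 and 139 in the hippocampus and 23.0, 16.9, 2.65 and 15.3 in the cortex (log2 fold change 3.13 ± 0.59 (SE), adjusted p = 0.00178), with both regions lowest in replicate 3. *C1ql3* and *Pdzd2* were the members higher in the cortex, and 7 members, including *Plk5*, *Trpc6* and *Npnt*, were not called.

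The CA1 list had the largest median of the hippocampal field lists. Of 11 members tested, 9 were called higher in the hippocampus, each by at least 2-fold, and 1 higher in the cortex (median 1.97). *Fibcd1*, a membrane protein with a fibrinogen domain, was 3887, 4699, 4593 and 5384 in the hippocampus and 213, 257, 149 and 272 in the cortex (log2 fold change 4.40 ± 0.17 (SE), adjusted p = 2.16e-08). *Spink8*, a secreted protease inhibitor, was 462, 446, 473 and 490 in the hippocampus and 8.12, 8.78, 25.3 and 24.2 in the cortex (log2 fold change 4.91 ± 0.34 (SE), adjusted p = 1.16e-06), and *Gpr161*, a receptor of the primary cilium that restrains hedgehog signaling, was 2597, 3069, 3271 and 3211 in the hippocampus and 269, 281, 257 and 266 in the cortex (log2 fold change 3.49 ± 0.08 (SE), adjusted p = 7.09e-10). None of these overlapped between regions. *Ndst4*, a heparan sulfate sulfotransferase, was 900, 939, 1005 and 784 in the hippocampus and 43.4, 59.0, 294 and 49.5 in the cortex (log2 fold change 3.51 ± 0.49 (SE), adjusted p = 0.000211), so that cortex replicate 3 stood at 294 while the other cortical libraries did not pass 59.0. *Wfs1*, which encodes wolframin of the endoplasmic reticulum and is a common CA1 marker, was 4352, 5008, 4139 and 3856 in the hippocampus and 3503, 4134, 7929 and 3720 in the cortex and was not called (log2 fold change -0.07 ± 0.22 (SE), adjusted p = 0.818). Its highest value of all 8 libraries was that of cortex replicate 3, at 7929, and without that library the log2 fold change was 0.19 (adjusted p = 0.135).

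CA2 and CA3 markers rose as well, with exceptions. Of 12 CA2 markers, 8 were called higher in the hippocampus and 3 higher in the cortex (median 0.82). *Amigo2*, an adhesion protein, was 775, 829, 867 and 879 in the hippocampus and 174, 198, 271 and 220 in the cortex (log2 fold change 1.97 ± 0.12 (SE), adjusted p = 6.02e-07), and *Ntf3*, neurotrophin 3, was 191, 198, 128 and 184 in the hippocampus and 22.3, 40.4, 24.3 and 12.6 in the cortex (log2 fold change 2.86 ± 0.30 (SE), adjusted p = 2.89e-05). *Pcp4*, a calmodulin regulator that marks CA2 and is also made by deep cortical neurons, was higher in the cortex, with 1869, 1831, 2051 and 1867 in the hippocampus and 4343, 3559, 3471 and 4469 in the cortex (log2 fold change -1.05 ± 0.09 (SE), adjusted p = 4.16e-06). *Sostdc1*, on the CA2 and the choroid plexus lists, was 397, 48.3, 158 and 504 in the hippocampus and 134, 5.90, 9.86 and 5.21 in the cortex and was highest in the 4 libraries rich in choroid plexus RNA.

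Of 14 CA3 markers, 10 were called higher in the hippocampus and 1 higher in the cortex (median 0.73). *Cpne7*, a copine that binds membranes in response to calcium, was 11080, 12348, 13950 and 13902 in the hippocampus and 928, 1315, 1874 and 973 in the cortex (log2 fold change 3.38 ± 0.19 (SE), adjusted p = 2.56e-07). *Iyd*, iodotyrosine deiodinase, was 93.6, 144, 172 and 136 in the hippocampus and 5.85, 9.21, 3.19 and 3.97 in the cortex (log2 fold change 4.44 ± 0.32 (SE), adjusted p = 1.5e-06), and *Nnat*, the imprinted gene of neuronatin, was 9225, 8147, 7817 and 10192 in the hippocampus and 1441, 1653, 2563 and 1489 in the cortex (log2 fold change 2.34 ± 0.16 (SE), adjusted p = 1.2e-06). Cortex replicate 3 was the highest cortical library for *Cpne7* and *Nnat* and the lowest for *Iyd*. *Grik4*, a kainate receptor subunit abundant in CA3, was 2041 ± 149 against 1160 ± 112 (log2 fold change 0.82). *Coch*, which encodes cochlin of the extracellular matrix, went the other way, with 250, 159, 209 and 309 in the hippocampus and 924, 981, 783 and 991 in the cortex (log2 fold change -2.02 ± 0.17 (SE), adjusted p = 6.16e-06).

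Mossy cell and subiculum markers gave smaller counts. Shares called higher in the hippocampus were 25% and 50%, and in the cortex 0% and 25%. Over all genes tested the shares were 17.0% and 18.8%. *Calb2*, calretinin, was 960, 1038, 1040 and 1267 in the hippocampus and 228, 362, 626 and 272 in the cortex (log2 fold change 1.63 ± 0.25 (SE), adjusted p = 0.000461), and with *Csf2rb2* (log2 fold change 2.62) it made 2 of 8 mossy cell markers called, both higher in the hippocampus (median 0.03). Of 8 subiculum markers, 4 were called higher in the hippocampus and 2 higher in the cortex (median 0.23). *Nts*, neurotensin, was 123, 154, 94.3 and 133 in the hippocampus and 11.2, 9.06, 9.14 and 5.06 in the cortex (log2 fold change 3.75 ± 0.27 (SE), adjusted p = 1.44e-06), and *Dlk1*, a Notch ligand of the delta-like family, was 180, 222, 149 and 245 in the hippocampus and 8.13, 15.6, 26.5 and 21.0 in the cortex (log2 fold change 3.50 ± 0.32 (SE), adjusted p = 9.2e-06). *Cntn6*, a contactin, was higher in the cortex, at 461 ± 68.7 against 192 ± 21.8 (log2 fold change -1.26).

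**Figure D2:**
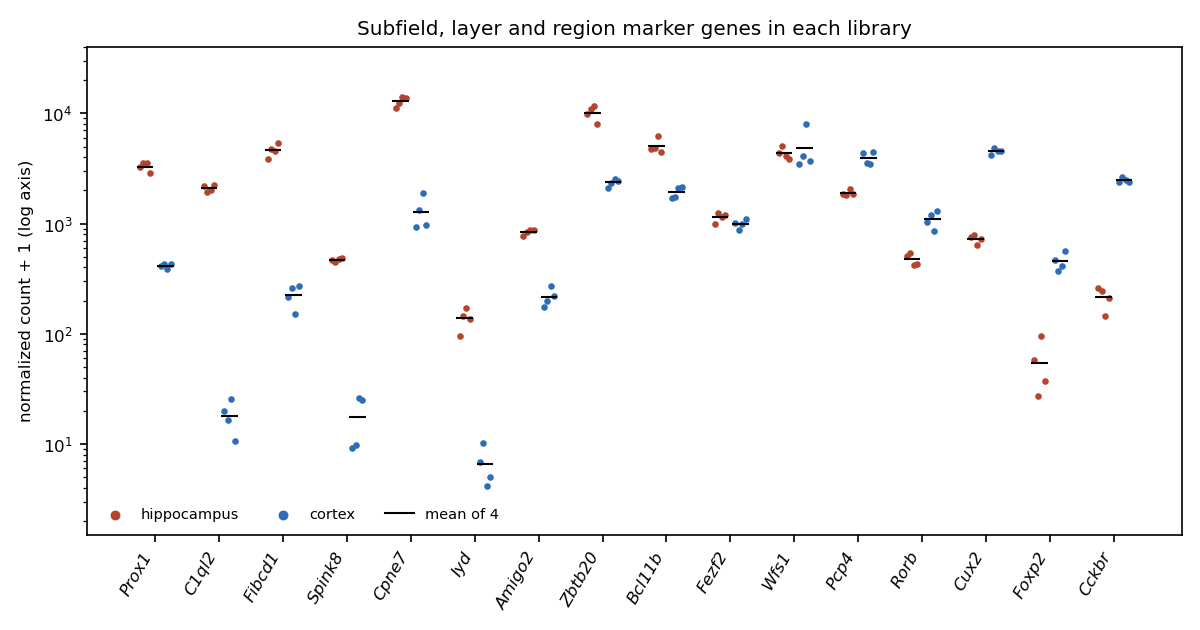
Normalized count + 1 of 16 marker genes in each of the 8 libraries, on a log axis. Red points are the 4 hippocampal and blue points the 4 cortical libraries, and black bars are means. The field markers *Prox1* to *Amigo2* separate upward in the hippocampus, *Pcp4* to *Cckbr* upward in the cortex, and *Fezf2* and *Wfs1* overlap.

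Upper layer markers marked the cortex. Of 14 tested, 10 were called higher in the cortex and 2 higher in the hippocampus (median -1.24). *Cux2* (ENSMUSG00000042589, chr5:121856366-122050102), a homeobox factor of layers 2 to 4, was 4217, 4802, 4559 and 4564 in the cortex against 761, 789, 637 and 721 in the hippocampus (log2 fold change -2.64 ± 0.07 (SE), adjusted p = 2.47e-09). *Lamp5*, a lysosome-associated membrane protein of neurons, was 7352, 7477, 4346 and 7542 in the cortex against 1010, 1029, 792 and 1024 in the hippocampus (log2 fold change -2.76 ± 0.17 (SE), adjusted p = 4.34e-07), and *Rorb*, a nuclear receptor of layer 4, was 1024, 1204, 853 and 1306 in the cortex against 505, 534, 420 and 431 in the hippocampus (log2 fold change -1.20 ± 0.13 (SE), adjusted p = 3.7e-05). *Cux2* was even across the cortical libraries, while *Lamp5* was lowest in cortex replicate 3. *Otof*, which encodes otoferlin, was 1586 ± 314 in the cortex against 305 ± 61.2 in the hippocampus (log2 fold change -2.38). The exceptions were *Mdga1*, an adhesion protein that binds neuroligin 2, at 2204, 2231, 2500 and 2492 in the hippocampus and 323, 469, 414 and 705 in the cortex (log2 fold change 2.36 ± 0.19 (SE), adjusted p = 3.3e-06), and *Scnn1a*, a sodium channel subunit, at 240 ± 41.6 against 57.4 ± 18.6 (log2 fold change 2.09).

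Deep layer markers split between layer 5 and layer 6. Of 16 layer 5 markers, 6 were called higher in the hippocampus and 3 higher in the cortex (median 0.19). The shares were 37.5% and 18.75%, against 17.0% and 18.8% of all genes tested. *Fezf2*, the factor that specifies subcerebral projection neurons, was 992, 1246, 1134 and 1206 in the hippocampus and 1012, 872, 988 and 1099 in the cortex and was not called (log2 fold change 0.20 ± 0.09 (SE), adjusted p = 0.101), except without hippocampus replicate 1 (log2 fold change 0.27, adjusted p = 0.0350) and in a model over all 48 libraries (adjusted p = 0.0450). *Bcl11b*, also known as CTIP2, which acts in the same neurons and is made by hippocampal neurons too, was 4760, 4876, 6215 and 4427 in the hippocampus and 1691, 1749, 2098 and 2144 in the cortex (log2 fold change 1.40 ± 0.11 (SE), adjusted p = 3.3e-06). *Deptor*, an inhibitor of mTOR, was higher in the cortex, at 1212 ± 117 against 448 ± 67.2 (log2 fold change -1.44). Of 14 markers of layers 6 and 6b, by contrast, 10 were called higher in the cortex and 1 higher in the hippocampus (median -1.63). *Foxp2*, a forkhead factor of corticothalamic neurons, was 462, 369, 409 and 566 in the cortex against 57.1, 26.1, 93.7 and 36.4 in the hippocampus (log2 fold change -3.20 ± 0.33 (SE), adjusted p = 2.11e-05). *Cplx3*, complexin 3 of subplate neurons, was 709, 624, 483 and 642 in the cortex against 142, 162, 86.2 and 89.6 in the hippocampus (log2 fold change -2.39 ± 0.21 (SE), adjusted p = 6.54e-06), and *Syt6*, a synaptotagmin, was 776, 743, 1097 and 990 in the cortex against 187, 178, 185 and 214 in the hippocampus (log2 fold change -2.22 ± 0.13 (SE), adjusted p = 3.44e-07). *Nr4a2*, an orphan nuclear receptor of subplate and claustrum neurons, was the exception, at 1588, 2024, 1418 and 1659 in the hippocampus and 476, 711, 668 and 691 in the cortex (log2 fold change 1.40 ± 0.14 (SE), adjusted p = 1.67e-05).

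Transcription factors that pattern the forebrain differed in both directions. Of 34 tested, 17 were called higher in the hippocampus and 11 higher in the cortex (median 0.20). *Zbtb20*, a repressor required for hippocampal identity, was 9953, 10866, 11741 and 7939 in the hippocampus and 2100, 2354, 2557 and 2451 in the cortex (log2 fold change 2.09 ± 0.11 (SE), adjusted p = 1.58e-07). *Nr2f2*, also known as COUP-TFII, was 811, 587, 648 and 931 in the hippocampus and 201, 203, 229 and 239 in the cortex (log2 fold change 1.75 ± 0.14 (SE), adjusted p = 3.58e-06). *Mef2c*, a MADS box factor that controls synapse number, was 22771, 22025, 19848 and 21286 in the cortex against 4043, 3666, 3024 and 2700 in the hippocampus (log2 fold change -2.69 ± 0.11 (SE), adjusted p = 2.8e-08). *Tbr1*, a T-box factor of deep layer neurons, was 4120 ± 346 against 1188 ± 112 (log2 fold change -1.79), and *Meis2*, a TALE homeobox factor, was 4442 ± 271 against 1349 ± 125 (log2 fold change -1.72). The members higher in the hippocampus also included the basic helix-loop-helix factors *Neurod1*, *Neurod2*, *Neurod6* and *Bhlhe22* and the nuclear factor I genes *Nfia*, *Nfib* and *Nfix*. *Lhx2*, *Pax6*, *Nr2f1*, *Lef1*, *Meis1* and *Fezf2* were not called.

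Interneuron markers were more often higher in the cortex. Of 24 tested, 13 were called higher in the cortex and 4 higher in the hippocampus (median -0.31), and without the 4 libraries rich in choroid plexus RNA 8 and 3. *Vip*, vasoactive intestinal peptide, was 1368, 1457, 1227 and 1506 in the cortex against 354, 411, 288 and 392 in the hippocampus (log2 fold change -1.95 ± 0.11 (SE), adjusted p = 3.29e-07). *Crh*, corticotropin releasing hormone, was 133, 116, 98.1 and 140 in the cortex against 23.2, 31.2, 19.9 and 32.6 in the hippocampus (log2 fold change -2.16 ± 0.21 (SE), adjusted p = 1.4e-05), and *Tac2*, neurokinin B, was 226 ± 21.5 against 61.8 ± 14.0 (log2 fold change -1.87). The regions did not overlap for these peptides. *Th*, tyrosine hydroxylase, was 47.8, 44.7, 144 and 37.9 in the cortex against 13.7, 10.1, 9.26 and 8.42 in the hippocampus (log2 fold change -2.41 ± 0.39 (SE), adjusted p = 0.000679), with cortex replicate 3 far above the other cortical libraries. *Gad2* and *Slc32a1*, which serve GABA synthesis and vesicle loading in all interneurons, were called slightly higher in the cortex, and *Gad1*, *Sst* and *Lhx6* were not called. *Kit*, a receptor tyrosine kinase, was 3246, 3352, 3210 and 3526 in the hippocampus and 1443, 1499, 1240 and 1352 in the cortex (log2 fold change 1.27 ± 0.07 (SE), adjusted p = 1.39e-07), and *Nos1*, neuronal nitric oxide synthase, was 3204, 3891, 3427 and 3723 in the hippocampus and 1547, 1678, 2391 and 1537 in the cortex (log2 fold change 1.01 ± 0.13 (SE), adjusted p = 0.00011). *Calb2* and *Ndnf* were the other members higher in the hippocampus.

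Glutamate receptor genes differed by subunit. Of 17 ionotropic subunits tested, 6 were called higher in the hippocampus and 4 higher in the cortex (median 0.02). *Gria1*, the AMPA receptor subunit GluA1, was 34200, 36762, 40987 and 33663 in the hippocampus and 10372, 10903, 12852 and 10778 in the cortex (log2 fold change 1.70 ± 0.08 (SE), adjusted p = 7.29e-08). *Gria4*, another AMPA receptor subunit, was higher in the cortex, at 1617, 1766, 1426 and 1607 in the hippocampus and 3768, 3467, 3449 and 3864 in the cortex (log2 fold change -1.18 ± 0.07 (SE), adjusted p = 3.7e-07), as was the kainate receptor subunit *Grik3*, at 1574, 1791, 1422 and 1527 in the hippocampus and 4338, 3955, 4627 and 4573 in the cortex (log2 fold change -1.47 ± 0.08 (SE), adjusted p = 1.49e-07). The NMDA receptor subunit *Grin2a* was 10068 ± 1740 against 6027 ± 416 (log2 fold change 0.73), and *Grin1*, the obligatory NMDA receptor subunit, was not called. Of 7 metabotropic receptors, 2, *Grm5* of group I among them, were called higher in the hippocampus, and *Grm3*, *Grm4* and *Grm8* of groups II and III higher in the cortex (median -0.17). *Grm8* was 141, 162, 135 and 107 in the hippocampus and 644, 586, 691 and 653 in the cortex (log2 fold change -2.24 ± 0.12 (SE), adjusted p = 2.5e-07).

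GABA-A receptor subunits differed by alpha isoform. Of 14 tested, 4 were called higher in the hippocampus and 6 higher in the cortex (median -0.20), and without the 4 libraries rich in choroid plexus RNA 4 and 3. *Gabra5*, the alpha 5 subunit of extrasynaptic receptors, was 5483, 5812, 4857 and 5503 in the hippocampus and 1672, 1471, 1478 and 1534 in the cortex (log2 fold change 1.81 ± 0.07 (SE), adjusted p = 1.44e-08). *Gabra2* was also higher in the hippocampus, at 4958 ± 225 against 2564 ± 228 (log2 fold change 0.95). *Gabra3* was 1690, 1981, 1807 and 1822 in the hippocampus and 5415, 5525, 5450 and 5671 in the cortex (log2 fold change -1.60 ± 0.05 (SE), adjusted p = 9.45e-09). The 4 cortical values of *Gabra3* stood close together, and no hippocampal value came near them. *Gabrd*, the delta subunit, was 679, 748, 402 and 682 in the hippocampus and 2259, 2353, 1611 and 2352 in the cortex (log2 fold change -1.79 ± 0.19 (SE), adjusted p = 2.68e-05), lowest in replicate 3 of either region.

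Receptors for monoamines and acetylcholine also differed by subtype. Of 36 tested, 11 were called higher in the hippocampus and 17 higher in the cortex (median -0.20). The serotonin receptor genes *Htr4* and *Htr5b* were 396, 441, 450 and 385 in the hippocampus and 19.3, 23.7, 37.5 and 41.2 in the cortex (log2 fold change 3.80 ± 0.22 (SE), adjusted p = 3.67e-07) and 181, 148, 197 and 210 in the hippocampus and 14.1, 12.4, 8.57 and 12.7 in the cortex (log2 fold change 3.85 ± 0.21 (SE), adjusted p = 1.93e-07). *Htr1a* was 1014 ± 85.6 against 425 ± 71.0 (log2 fold change 1.26). *Drd5*, a D1-like dopamine receptor, was 424, 437, 565 and 437 in the hippocampus and 96.5, 75.4, 114 and 103 in the cortex (log2 fold change 2.25 ± 0.15 (SE), adjusted p = 7.57e-07), while *Drd1* was higher in the cortex, at 90.4, 103, 96.2 and 55.4 in the hippocampus and 259, 319, 393 and 394 in the cortex (log2 fold change -1.99 ± 0.21 (SE), adjusted p = 2.5e-05). *Drd4*, a D2-like receptor, was near its limit of detection in the hippocampus, at 3.97, 4.27, 3.28 and 2.68, against 22.3, 15.8, 44.3 and 22.8 in the cortex (log2 fold change -2.50 ± 0.37 (SE), adjusted p = 0.000341). *Chrm5*, a muscarinic receptor, was 42.4, 45.8, 68.8 and 48.6 in the hippocampus and 0, 6.88, 2.16 and 9.32 in the cortex (log2 fold change 3.69 ± 0.63 (SE), adjusted p = 0.000932), and *Chrnb3*, a nicotinic receptor subunit, was 7.38, 10.1, 4.80 and 8.84 in the hippocampus and 76.7, 80.7, 84.3 and 72.0 in the cortex (log2 fold change -3.21 ± 0.25 (SE), adjusted p = 3.25e-06). *Htr2c*, a serotonin receptor that choroid plexus cells also make, was 1727, 1131, 1090 and 1938 in the hippocampus and 788, 517, 626 and 451 in the cortex (log2 fold change 1.29 ± 0.21 (SE), adjusted p = 0.000682), and its highest values were those of hippocampus replicates 1 and 4, the libraries with the most choroid plexus RNA.

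Neuropeptide and potassium channel genes were mostly higher in the cortex. Of 23 neuropeptide genes, 12 were called higher in the cortex and 3 higher in the hippocampus (median -0.56). *Adcyap1*, which encodes the peptide PACAP, was 146, 85.0, 65.4 and 136 in the hippocampus and 697, 562, 644 and 609 in the cortex (log2 fold change -2.60 ± 0.23 (SE), adjusted p = 6.33e-06), and *Grp*, gastrin releasing peptide, was 340, 503, 495 and 453 in the hippocampus and 135, 167, 139 and 92.6 in the cortex (log2 fold change 1.75 ± 0.18 (SE), adjusted p = 2.71e-05). *Cck*, *Npy*, *Pdyn*, *Penk*, *Tac1* and *Vgf* were among the members higher in the cortex, and *Sst*, *Scg2* and *Chga* were not called. Of 30 voltage-gated potassium channel genes, 18 were called higher in the cortex and 7 higher in the hippocampus (median -0.42), and without the 4 libraries rich in choroid plexus RNA 12 and 4. The 5 *Kcnh* genes on that list were called higher in the cortex. *Kcnh4* was 117, 119, 61.2 and 123 in the hippocampus and 937, 1085, 740 and 1010 in the cortex (log2 fold change -3.19 ± 0.21 (SE), adjusted p = 9.5e-07), *Kcnh5* was 107 ± 25.6 against 558 ± 124 (log2 fold change -2.37), and *Kcnh7* was 1512 ± 285 against 4859 ± 706 (log2 fold change -1.69). *Kcng2*, a modifying subunit without channel activity of its own, was 671, 709, 703 and 659 in the hippocampus and 156, 188, 92.4 and 168 in the cortex (log2 fold change 2.22 ± 0.19 (SE), adjusted p = 4.73e-06).

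Synaptic adhesion, matrix, actin and nuclear receptor genes were tested as further lists. Of 28 synaptic adhesion genes, 7 were called higher in the hippocampus and 13 higher in the cortex (median -0.20), and without the 4 libraries rich in choroid plexus RNA 5 and 7. Besides *C1ql2*, *Lrrtm1*, a postsynaptic ligand of neurexin, was 2747, 2898, 2888 and 3053 in the hippocampus and 1063, 1167, 1332 and 1223 in the cortex (log2 fold change 1.28 ± 0.07 (SE), adjusted p = 2.27e-07). *Cbln2*, a cerebellin that bridges neurexin to delta glutamate receptors, was 186, 210, 123 and 170 in the hippocampus and 1050, 1197, 1050 and 1495 in the cortex (log2 fold change -2.80 ± 0.16 (SE), adjusted p = 3.67e-07), and *Lrrtm3* was 422 ± 161 against 1132 ± 96.5 (log2 fold change -1.50). Of 12 genes of perineuronal nets and matrix, 4 were called higher in the hippocampus and 2 higher in the cortex (median 0.18), and without the 4 rich libraries 1 and 1, and *Has3*, a hyaluronan synthase, had the largest difference, at 151, 124, 137 and 95.0 in the hippocampus and 81.0, 42.9, 45.2 and 59.2 in the cortex (log2 fold change 1.16 ± 0.23 (SE), adjusted p = 0.00211). *Acan*, the main proteoglycan of perineuronal nets, was not called. With all libraries 33.3% of the matrix list was called higher in the hippocampus and 16.7% in the cortex, against 17.0% and 18.8% of all genes tested.

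The WAVE complex, which holds *Cyfip1* or *Cyfip2*, split by paralog. Of 11 genes, 4 were called higher in the hippocampus and 4 higher in the cortex (median 0.04), where with the choroid plexus level as a covariate 4 and 2 were called and without the 4 libraries rich in choroid plexus RNA 4 and 1. *Cyfip2* (ENSMUSG00000020340, chr11:46193850-46312859) was 25638, 27949, 29851 and 24719 in the hippocampus and 33310, 34224, 30472 and 33587 in the cortex (log2 fold change -0.29 ± 0.06 (SE), adjusted p = 0.0054), and the regions did not overlap, although hippocampus replicate 3, at 29851, came close to the lowest cortical library, at 30472. Without the 4 rich libraries *Cyfip2* was not called (log2 fold change -0.23, adjusted p = 0.130). *Cyfip1* was 4385, 4556, 4472 and 3853 in the hippocampus and 2611, 2601, 2553 and 2672 in the cortex (log2 fold change 0.72 ± 0.06 (SE), adjusted p = 3.27e-06). *Wasf1*, which encodes WAVE1, was 9693 ± 564 against 5586 ± 215 (log2 fold change 0.79), and *Abi1* was 4993 ± 531 against 3063 ± 122 (log2 fold change 0.70). *Wasf2*, *Wasf3* and *Abi3* were not called.

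Among 19 steroid, thyroid and retinoid receptors, 3 were called higher in the hippocampus and 8 higher in the cortex (median -0.34). These are 15.8% and 42.1%, against 17.0% and 18.8% of all genes tested, so the hippocampal share was near that of all genes. *Nr3c2*, the mineralocorticoid receptor, was 5596, 5802, 8014 and 5354 in the hippocampus and 1024, 1061, 1044 and 1048 in the cortex (log2 fold change 2.55 ± 0.11 (SE), adjusted p = 3.88e-08). Its cortical values stood close together, and the hippocampal mean was 5.93 times the cortical one. *Nr3c1*, the glucocorticoid receptor, *Pgr* and *Esrrg* were called higher in the cortex. *Thrb*, a thyroid hormone receptor, was 1016 ± 124 against 2039 ± 71.5 (log2 fold change -1.01), and *Esr1*, estrogen receptor alpha, was 69.0, 68.2, 65.0 and 78.9 in the hippocampus and 108, 160, 195 and 109 in the cortex (log2 fold change -0.97 ± 0.20 (SE), adjusted p = 0.00313).

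**Figure D3:**
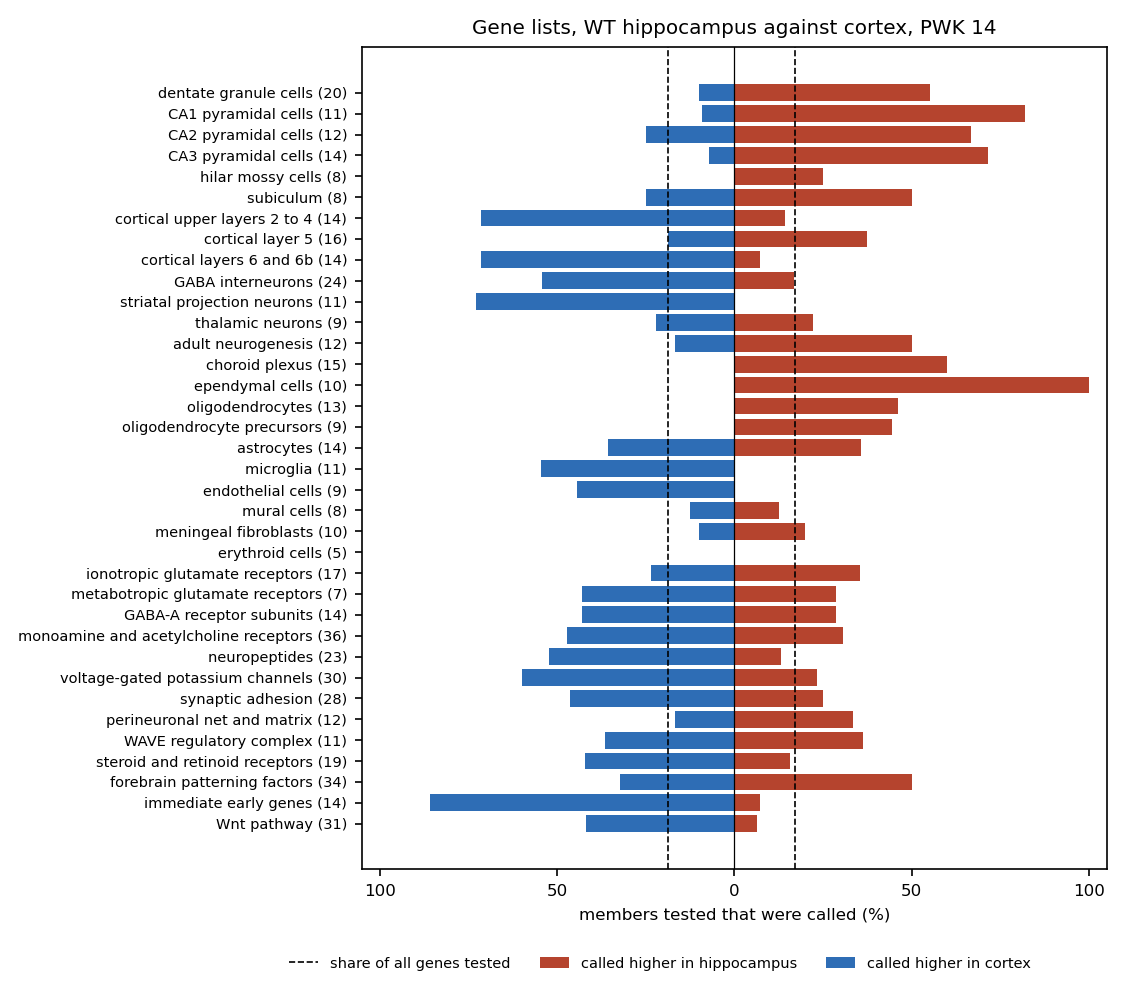
Share of the tested members of each of 36 gene lists that were called higher in the hippocampus (red, to the right) or in the cortex (blue, to the left), in percent, with the number tested in parentheses. Dashed lines give the shares among all 17006 genes, 17.0% and 18.8%. All 10 ependymal genes lie to the right, and 12 of 14 immediate early genes to the left.

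Immediate early genes, which neurons switch on within minutes of activity, were lower in the hippocampus as a list. Of 14 tested, 12 were called higher in the cortex and 1 higher in the hippocampus (median -1.09). *Egr1*, a zinc finger factor, was 5191, 5408, 6063 and 5079 in the hippocampus and 12219, 11851, 13366 and 13525 in the cortex (log2 fold change -1.23 ± 0.07 (SE), adjusted p = 1.9e-07). *Arc*, which encodes a regulator of AMPA receptor endocytosis, was 6322, 7797, 7600 and 6738 in the hippocampus and 14657, 15346, 16024 and 16142 in the cortex (log2 fold change -1.13 ± 0.07 (SE), adjusted p = 4.55e-07), and *Egr2* was 242, 305, 332 and 268 in the hippocampus and 840, 1054, 1363 and 917 in the cortex (log2 fold change -1.85 ± 0.15 (SE), adjusted p = 3.87e-06). The cortical values were above all hippocampal ones for each of the 12. *Npas4*, a factor induced by calcium entry, was 699, 844, 761 and 620 in the hippocampus and 1628, 1498, 1956 and 1358 in the cortex (log2 fold change -1.13 ± 0.12 (SE), adjusted p = 2.8e-05), *Fos*, a subunit of AP-1, was 887 ± 67.7 against 1948 ± 227 (log2 fold change -1.13), and *Dusp1*, a phosphatase of MAP kinases, was 623 ± 85.3 against 1496 ± 214 (log2 fold change -1.26). *Nr4a3*, an orphan nuclear receptor, went against the list, with 2927, 3330, 3173 and 3469 in the hippocampus and 1385, 1571, 2037 and 1496 in the cortex (log2 fold change 1.00 ± 0.11 (SE), adjusted p = 2.94e-05), and *Btg2* was not called. Brains were collected in the afternoon of the light phase according to the sample records.

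Promoters of 5 of these genes are shown because 4 of them were lower in the hippocampus and *Nr4a3* was higher. Each sequence is the 250 bases before a RefSeq transcription start in GRCm38.p6, 5′ to 3′ on the strand of the gene. Capitals mark the cyclic AMP response element TGACGTCA, its shorter core TGACG or CGTCA on either strand, which the full element contains, and the CArG box bound by serum response factor. *Fos* is at chr12:85473640-85473889, plus strand, *Egr2*, the third of 5 listed starts, at chr10:67537619-67537868, plus strand, *Npas4* at chr19:4989972-4990221, minus strand, *Dusp1* at chr17:26508473-26508722, minus strand, and *Nr4a3* at chr4:48045055-48045304, plus strand.
Fos: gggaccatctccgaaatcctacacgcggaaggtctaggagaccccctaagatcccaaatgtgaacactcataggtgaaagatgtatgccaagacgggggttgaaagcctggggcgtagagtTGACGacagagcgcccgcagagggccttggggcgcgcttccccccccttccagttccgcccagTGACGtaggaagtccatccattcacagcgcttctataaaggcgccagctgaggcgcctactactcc
Egr2: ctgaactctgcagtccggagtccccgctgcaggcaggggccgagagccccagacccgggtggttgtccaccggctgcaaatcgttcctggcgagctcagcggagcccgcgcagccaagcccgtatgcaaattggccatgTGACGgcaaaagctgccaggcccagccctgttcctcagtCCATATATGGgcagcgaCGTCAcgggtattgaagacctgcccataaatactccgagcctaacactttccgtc
Npas4: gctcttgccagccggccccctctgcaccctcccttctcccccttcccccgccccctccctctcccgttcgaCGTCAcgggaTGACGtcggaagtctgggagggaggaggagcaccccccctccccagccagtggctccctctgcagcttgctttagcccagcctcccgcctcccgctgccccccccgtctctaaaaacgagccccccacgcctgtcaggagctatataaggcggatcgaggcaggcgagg
Dusp1: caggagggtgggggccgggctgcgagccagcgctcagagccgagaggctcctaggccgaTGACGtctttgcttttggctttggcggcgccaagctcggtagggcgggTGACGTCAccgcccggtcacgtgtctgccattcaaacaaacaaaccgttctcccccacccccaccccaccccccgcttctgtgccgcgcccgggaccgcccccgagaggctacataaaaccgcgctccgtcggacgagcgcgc
Nr4a3: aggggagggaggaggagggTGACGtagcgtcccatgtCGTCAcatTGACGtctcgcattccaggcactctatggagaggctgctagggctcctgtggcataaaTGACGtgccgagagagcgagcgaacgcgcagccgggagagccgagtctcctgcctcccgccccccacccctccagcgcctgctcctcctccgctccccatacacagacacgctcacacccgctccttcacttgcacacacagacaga

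A RefSeq promoter was listed for 10 of the 14 genes, and none for *Egr1*, *Egr3*, *Arc* and *Ier2*. The core element was found in at least 1 listed promoter of all 10, against 17.9% of 32536 promoters of the same length. The full element was found in those of *Dusp1* and *Btg2*, against 1.56%, and the CArG box in *Egr2*, against 1.48%. These shares are per promoter, whereas a gene counted if any of its promoters matched. *Egr2* had 5 listed promoters, of which promoters 1 and 2 lacked the core element and promoter 1 the CArG box. *Nr4a3*, which was higher in the hippocampus, carried 4 matches of the core element, as did *Nr4a1*, which was lower. *Dusp1*, also lower, carried 3, and *Fos* and *Npas4*, which were lower too, carried 2 each. A match is a run of letters only, and matches were found in genes of both directions. Sequence outside the window of 250 bases was not searched, so a motif not found there may lie elsewhere.

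Genes of the Wnt pathway, which patterns the forebrain and acts at synapses of adults, were called higher in the cortex more often than in the hippocampus. Of 31 tested, 13 were higher in the cortex and 2 in the hippocampus (median -0.29), and without the 4 libraries rich in choroid plexus RNA 8 and 0 in limma. *Dkkl1*, a secreted protein related to the Dickkopf inhibitors, was 555, 545, 575 and 728 in the cortex against 24.2, 19.5, 16.6 and 29.3 in the hippocampus (log2 fold change -4.70 ± 0.18 (SE), adjusted p = 2.23e-08). The ligands *Wnt10a* and *Wnt9a* were 294, 253, 292 and 348 in the cortex against 67.5, 44.4, 36.0 and 65.9 in the hippocampus (log2 fold change -2.49 ± 0.21 (SE), adjusted p = 4.66e-06) and 790 ± 117 against 220 ± 58.1 (log2 fold change -1.87). *Rspo1*, an R-spondin that enhances Wnt signaling, was 150 ± 42.6 in the cortex against 24.7 ± 5.26 in the hippocampus (log2 fold change -2.53). *Wnt2* and *Wnt7a* were the members higher in the hippocampus, and the target gene *Axin2* was not called.

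Astrocyte genes moved in both directions. Of 14 tested, 5 were called higher in each region (median -0.09). With the choroid plexus level as a covariate, 3 were called higher in the hippocampus and 4 in the cortex. The counts also changed without the 4 libraries rich in choroid plexus RNA, a fit with 1 hippocampal library. What part that RNA had in the split was not tested. *Gfap*, the intermediate filament of astrocytes, was 10882, 9968, 20066 and 9576 in the hippocampus and 2945, 3153, 5774 and 2501 in the cortex (log2 fold change 1.82 ± 0.27 (SE), adjusted p = 0.000386). Replicate 3 was the highest library of both regions, at 20066 and 5774. *Agt*, angiotensinogen, was 715, 657, 524 and 872 in the hippocampus and 121, 122, 121 and 114 in the cortex (log2 fold change 2.50 ± 0.14 (SE), adjusted p = 2.47e-07). *Aldh1l1*, a folate enzyme of astrocytes, was higher in the cortex, at 1367, 1409, 1199 and 1474 in the hippocampus and 2304, 2334, 2146 and 2209 in the cortex (log2 fold change -0.73 ± 0.07 (SE), adjusted p = 1.08e-05), and *Slc1a3*, the glutamate transporter GLAST, was not called.

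Some myelin genes were slightly higher in the hippocampus. Of 13 oligodendrocyte genes, 6 were called higher in the hippocampus and none in the cortex (median 0.32). *Trf*, transferrin, was 8570, 7499, 6323 and 7371 in the hippocampus and 5650, 5590, 3634 and 5543 in the cortex (log2 fold change 0.56 ± 0.14 (SE), adjusted p = 0.00933), and *Mbp*, myelin basic protein, was 73805, 76720, 67107 and 64313 in the hippocampus and 57670, 66609, 45394 and 53691 in the cortex (log2 fold change 0.35 ± 0.10 (SE), adjusted p = 0.0241). Cortex replicate 3 was the lowest library for both genes, and no member of the list was called without the 4 libraries rich in choroid plexus RNA or with the choroid plexus level as a covariate, and 1 was called without hippocampus replicate 1 or without hippocampus replicate 2 and 3 without cortex replicate 4. In 1 model of all 16 libraries of PWK 14, or of all 48, 1 of the 13 was called. Of 9 genes of oligodendrocyte precursors, 4 were called higher in the hippocampus (median 0.20), the largest for *Bcas1* (log2 fold change 0.39). With the covariate 2 were called and without the 4 rich libraries 1, and *Bcas1* was not called in 6 of 21 alternatives (without cortex replicate 4 or hippocampus replicate 1 or 2 among them, adjusted p = 0.0513 to 0.0604).

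Microglial and vascular genes differed by small amounts. Of 11 microglial genes, 6 were called higher in the cortex and none in the hippocampus (median -0.20), and with the choroid plexus level as a covariate 3 were and without the 4 libraries rich in that RNA 1. *Csf1r*, the receptor that microglia need to survive, was 2669, 2843, 2716 and 2390 in the hippocampus and 3426, 3932, 4203 and 3572 in the cortex (log2 fold change -0.51 ± 0.07 (SE), adjusted p = 0.000318), and *P2ry12*, a purine receptor of resting microglia, was 926 ± 17.0 against 1121 ± 64.2 (log2 fold change -0.27). Of 9 endothelial genes, 4 were higher in the cortex (median -0.14), or 2 with the covariate or without the 4 rich libraries, among them *Flt1*, a receptor for vascular endothelial growth factor, at 1854 ± 121 against 2226 ± 103 (log2 fold change -0.26). Of 8 mural cell genes, *Acta2*, smooth muscle actin, was called higher in the hippocampus, at 685, 436, 626 and 608 in the hippocampus and 404, 368, 283 and 278 in the cortex (log2 fold change 0.82 ± 0.16 (SE), adjusted p = 0.00227), and *Abcc9* higher in the cortex, and without the 4 rich libraries 0 were called in limma. The mural share with all 8 libraries, 12.5% each way, was below the 17.0% and 18.8% of all genes tested. Of 5 erythroid genes, 0 were called in limma and 2 had an unadjusted p below 0.05 (median -0.29), while 3 were called without cortex replicate 4 and 1 without hippocampus replicate 1.

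Ependymal and choroid plexus genes, whose cells line and fill the ventricles beside the hippocampus, were higher in the hippocampus but behaved differently across libraries. All 10 ependymal genes were called higher there (median 1.70), with a summed level of 1093 to 1576 against 363 to 576 in the cortex. *Foxj1*, the factor that switches on motile cilia, was 427, 286, 334 and 469 in the hippocampus and 165, 142, 116 and 110 in the cortex (log2 fold change 1.50 ± 0.18 (SE), adjusted p = 7.3e-05), and *Ccdc153*, a cilium protein, was 219, 169, 203 and 160 in the hippocampus and 38.4, 25.4, 21.5 and 12.4 in the cortex (log2 fold change 2.98 ± 0.29 (SE), adjusted p = 1.42e-05). The groups did not overlap for *Foxj1* or *Ccdc153*. With the choroid plexus level as a covariate all 10 remained called, and without the 4 rich libraries 4 of 8 tested.

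Of 15 choroid plexus genes, 9 were called higher in the hippocampus (median 3.65), yet the groups overlapped for every one. *Ttr*, the thyroid hormone carrier transthyretin and the defining gene of choroid plexus epithelium, was 63259, 1783, 24884 and 111088 in the hippocampus and 26614, 235, 160 and 28.2 in the cortex (log2 fold change 5.83 ± 1.86 (SE), adjusted p = 0.0315). *Kl*, which encodes klotho, was 2869, 740, 1579 and 4285 in the hippocampus and 1029, 70.4, 101 and 74.7 in the cortex (log2 fold change 3.66 ± 0.81 (SE), adjusted p = 0.00456), and *Prlr*, the prolactin receptor, was 782, 112, 509 and 1041 in the hippocampus and 367, 5.97, 7.81 and 28.3 in the cortex (log2 fold change 4.03 ± 1.12 (SE), adjusted p = 0.0168). Cortex replicate 1 lay above hippocampus replicate 2 for all 3 of these genes, and *Ttr* ran from 1783 to 111088 within the hippocampus. Leaving out hippocampus replicate 2 alone, all 15 were called, without cortex replicate 1 11, and without any of the other 6 libraries 3 to 5. *Ttr* was not called without cortex replicate 2, 3 or 4 or hippocampus replicate 1, 3 or 4. With the covariate 4 of 15 were called higher and 1 lower. That covariate was the log2 summed level of these same 15 genes, so this count cannot show whether they differed by region. The choroid plexus level was high in 3 of 4 hippocampal and 1 of 4 cortical libraries. Its part in the other differences was not tested beyond the covariate and the fit without the 4 rich libraries. The fit without the 4 rich libraries tested 17039 genes, and its calls fell over all genes. A lower count in that fit is therefore not by itself a trait of a list. The shares of 17.0% and 18.8% of all genes tested belong to the main fit and are not the background for its counts. Of the other lists, without the 4 rich libraries, 11 of 20 dentate markers were called higher in the hippocampus and 0 in the cortex in limma, 9 and 1 of 11 CA1, 5 and 3 of 11 CA2, 7 and 2 of 12 CA3, 2 and 0 of 8 mossy cell and 3 and 2 of 7 subiculum markers. In the same order of regions, the counts were 2 and 10 of 14 upper layer, 8 and 3 of 16 layer 5 and 1 and 9 of 14 layer 6 and 6b markers, 0 and 6 of 11 striatal, 2 and 2 of 9 thalamic and 5 and 1 of 12 neurogenesis genes. They were 6 and 4 of 17 ionotropic and 2 and 3 of 7 metabotropic glutamate receptors, 10 and 14 of 36 monoamine and acetylcholine receptors, 2 and 10 of 22 neuropeptides, 14 and 9 of 33 patterning factors and 1 and 11 of 14 immediate early genes.

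**Figure D4:**
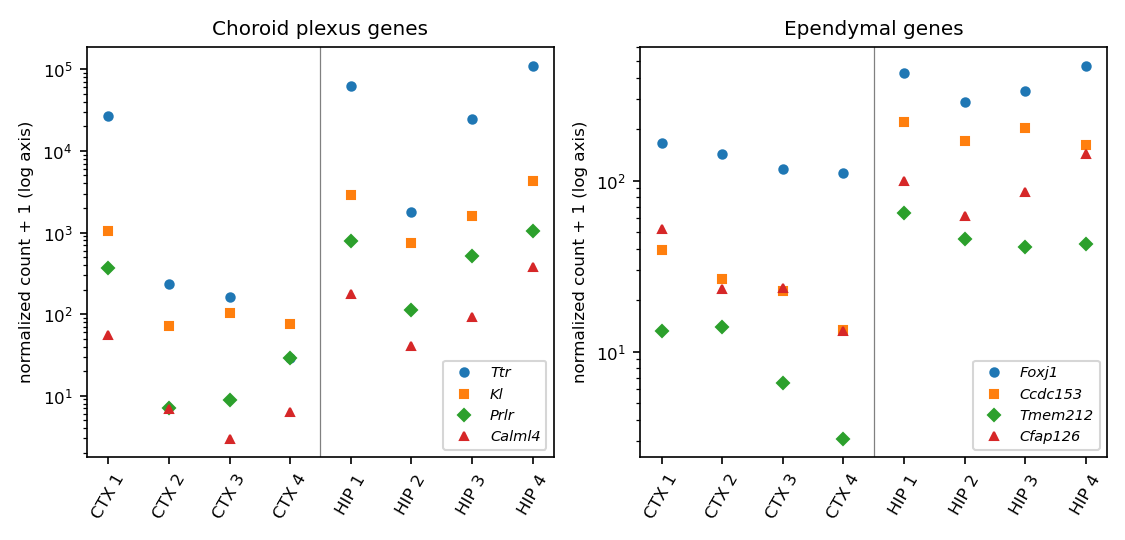
Normalized count + 1, on a log axis, of 4 choroid plexus genes (left) and 4 ependymal genes (right) in the 4 cortical (CTX) and 4 hippocampal (HIP) libraries, numbered by replicate. The choroid plexus genes peak in HIP 1, HIP 4, HIP 3 and CTX 1 and overlap between regions, and in CTX 4 the symbol of *Prlr* (28.3) covers that of *Ttr* (28.2). *Foxj1* and *Ccdc153* are higher in every hippocampal library.

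Markers of neighbouring regions and of meninges were also checked. Of 11 markers of striatal projection neurons, 8 were called higher in the cortex and none in the hippocampus (median -0.87), with a summed level of 10604 to 14626 in the cortex and 7160 to 7969 in the hippocampus. *Adora2a*, the adenosine receptor of striatopallidal neurons, was 83.4, 141, 128 and 262 in the cortex against 46.9, 62.8, 62.7 and 39.1 in the hippocampus (log2 fold change -1.43 ± 0.31 (SE), adjusted p = 0.00399). Its cortical level was highest in replicate 4. *Drd2* and *Pde10a* were not called. Of 9 thalamic markers, 2 were called in each direction (median -0.15). That is 22.2% each way, near the 17.0% and 18.8% of all genes tested. The largest were *Prkcd*, a protein kinase C, at 853, 789, 625 and 749 in the hippocampus and 312, 290, 448 and 334 in the cortex (log2 fold change 1.13 ± 0.14 (SE), adjusted p = 8.8e-05) and *Ramp3*, a receptor accessory protein, at 88.9, 77.5, 42.7 and 70.5 in the hippocampus and 445, 433, 294 and 381 in the cortex (log2 fold change -2.49 ± 0.22 (SE), adjusted p = 7.29e-06). Of 10 meningeal genes, *Lum* and *Dcn* were called higher in the hippocampus and *Slc22a6* higher in the cortex (median -0.22), and without the 4 libraries rich in choroid plexus RNA 1 and 4. The meningeal shares with all 8 libraries were 20% higher in the hippocampus and 10% in the cortex, against 17.0% and 18.8% of all genes tested. The part of adjoining tissue in any of these differences was not tested.

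Genes of adult neurogenesis, a process of the dentate gyrus, were higher in the hippocampus for 6 of 12 tested and higher in the cortex for 2 (median 0.82). *Neurod1*, a factor of immature granule cells, was 639, 637, 481 and 649 in the hippocampus and 270, 333, 206 and 226 in the cortex (log2 fold change 1.23 ± 0.15 (SE), adjusted p = 0.000103). *Igfbpl1*, an insulin-like growth factor binding protein of young neurons, was 72.4, 76.2, 100 and 74.1 in the hippocampus and 11.8, 21.1, 28.0 and 29.5 in the cortex (log2 fold change 1.86 ± 0.28 (SE), adjusted p = 0.000413), and *Hopx*, a marker of neural stem cells that astrocytes also make, was 2102 ± 219 against 968 ± 126 (log2 fold change 1.12). *Dcx*, doublecortin, which labels migrating neuroblasts, was higher in the cortex, at 742, 826, 655 and 531 in the hippocampus and 1732, 1532, 1499 and 1344 in the cortex (log2 fold change -1.16 ± 0.13 (SE), adjusted p = 3.59e-05). The proliferation genes *Mki67* and *Top2a* were not called.

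The regional differences at PWK 14 were also found in mice of the other genotype. In the 4 *Cyfip2*+/- hippocampal and 4 *Cyfip2*+/- cortical libraries of that age, 6674 of 17046 genes were called (39.2%). Of the genes called in WT mice and also tested there, 2327 of 2867 higher in the hippocampus (81.2%) and 2618 of 3172 higher in the cortex (82.5%) were called in the same direction, against 19.3% and 19.9% of all genes tested, and 0 in the opposite direction. *C1ql2* had a log2 fold change of 7.40 in *Cyfip2*+/- mice, *Prox1* of 2.84, *Cux2* of -2.48 and *Egr1* of -1.28. *Wfs1*, not called in WT mice, was 0.26 (adjusted p = 0.0101). A region by genotype interaction was called for 0 of 17669 genes in limma, where 552 had an unadjusted p below 0.05.

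At PWK 7, 8064 of 17019 genes were called between the WT regions (47.4%). Of the PWK 14 calls tested there, 2329 of 2862 higher in the hippocampus (81.4%, against 23.7% of all genes tested) and 2676 of 3169 higher in the cortex (84.4%, against 23.7%) were called in the same direction, and 4 and 9 in the opposite one. The region by age interaction was called for 13 of 17643 genes (0.0737%), 7 with a more positive regional difference at PWK 14 (0.0397%) and 6 with a more negative one (0.0340%). The 5 with the smallest p were *Snhg14*, *Slc7a11*, *Lsm11*, *Marcksl1* and *R3hdm2*. *Snhg14*, the noncoding RNA of the imprinted Prader-Willi region, was 6411, 7629, 5774 and 4824 in the hippocampus and 7256, 8184, 7506 and 7671 in the cortex at PWK 14, while PWK 7 gave 9615 ± 875 and 5922 ± 179 in that order (mean ± SD, n = 4 each), so that its regional difference changed from 0.70 to -0.33 (interaction -1.03 ± 0.14 (SE), adjusted p = 0.0122). *Slc7a11*, the cystine transporter, changed from 0.30 to -0.36 (interaction -0.66 ± 0.09 (SE), adjusted p = 0.0122), and *Lsm11*, a component of the U7 ribonucleoprotein that processes histone mRNA, from -0.53 to 0.48 (interaction 1.01 ± 0.14 (SE), adjusted p = 0.0122). For *Snhg14*, *Slc7a11* and *Lsm11* the region with the higher level differed between the ages. *Marcksl1*, an actin binding substrate of protein kinase C, went from 0.12 to 0.67 (interaction 0.56 ± 0.09 (SE), adjusted p = 0.0223), and *R3hdm2* moved from -1.23 to -0.77 (interaction 0.46 ± 0.07 (SE), adjusted p = 0.0223). *Zbtb20* was also called, with 17069 ± 1228 in the hippocampus at PWK 7 and a regional difference that went from 2.90 to 2.09 (interaction -0.81 ± 0.14 (SE), adjusted p = 0.0284). With mouse as a block in the model, 2 of the 13 remained called, *Snhg14* (adjusted p = 0.015) and *Marcksl1* (adjusted p = 0.0495). Leaving out 1 WT library of PWK 14 gave 3 calls without cortex replicate 3, 4 without cortex replicate 2, 28 without cortex replicate 4, 23, 21 and 26 without hippocampus replicates 1, 2 and 4, and 11 and 9 without the other 2. At PWK 14 itself the regional difference of *Snhg14* was called with 7 libraries only when hippocampus replicate 2 was the one left out. Age and any handling or sequencing batch of an age group cannot be told apart here.

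At PWK 1, when cortical layers are formed but dendrites and synapses are still growing, 5671 of 16807 genes were called (33.7%). Of the PWK 14 calls tested there, 1515 of 2808 higher in the hippocampus (54.0%, against 15.9% of all genes tested) and 1819 of 3101 higher in the cortex (58.7%, against 17.8%) were called in the same direction, and 70 and 77 in the opposite one. The region by age interaction was called for 2252 of 17699 genes (12.7%), 1029 of them with a more positive (5.81%) and 1223 with a more negative (6.91%) difference at PWK 14, and the 5 with the smallest p included *Myo5b*, *C130074G19Rik*, *Cpne5* and *Serpini1*. *Myo5b*, a myosin that carries recycling endosomes into spines, was 3284, 4148, 4212 and 3952 in the hippocampus and 678, 732, 736 and 785 in the cortex at PWK 14, while PWK 1 gave 3433 ± 164 and 2447 ± 175 in that order (interaction 1.92 ± 0.10 (SE), adjusted p = 1.78e-08). Its regional log2 fold change was 0.49 at PWK 1 and 2.41 at PWK 14. *Serpini1*, neuroserpin, changed sign, from 0.38 to -0.76 (interaction -1.14 ± 0.07 (SE), adjusted p = 5.38e-08). *Cpne5*, a copine, was -0.72 at PWK 1 and -2.46 at PWK 14 (interaction -1.74 ± 0.10 (SE), adjusted p = 3.23e-08).

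Many but not all markers of the fields and layers differed between the regions at PWK 1. Higher in the hippocampus and in the cortex there were 10 and 5 of 20 dentate, 9 and 1 of 11 CA1, 6 and 2 of 12 CA2 and 8 and 2 of 14 CA3 markers, and 2 and 9 of 14 upper layer, 7 and 5 of 16 layer 5 and 2 and 11 of 14 layer 6 and 6b markers. *Tdo2* (log2 fold change 0.10, adjusted p = 0.614) and *Otof* (-0.16, adjusted p = 0.188) were not called at that age. *Prox1* had a log2 fold change of 3.47 at PWK 1, 3.32 at PWK 7 and 2.98 at PWK 14. In the hippocampus *C1ql2* was 421 ± 60.8 at PWK 1, against 2101 ± 152 at PWK 14, and its regional difference went from 4.96 to 6.93 (interaction 1.97 ± 0.28 (SE), adjusted p = 0.000128). In the cortex *Krt80* was 32.3 ± 12.3 at PWK 1, against 387 ± 75.3 at PWK 14 (interaction -4.01 ± 0.43 (SE), adjusted p = 1.1e-05). *Cux2* went from -1.88 to -2.64 (interaction -0.76 ± 0.12 (SE), adjusted p = 0.000419), whereas *Foxp2* (-2.76 and -3.20) had no called interaction (adjusted p = 0.509). *Dcx* was 6210 ± 1124 in the hippocampus and 6077 ± 1774 in the cortex at PWK 1, and its regional difference moved from 0.06 to -1.16 (interaction -1.22 ± 0.25 (SE), adjusted p = 0.00332). *Wfs1* was higher in the hippocampus at PWK 1 (log2 fold change 0.90) and at PWK 7 (0.58), and the interaction with PWK 1 was called (-0.97 ± 0.26 (SE), adjusted p = 0.0175). Among the immediate early genes, *Egr1* was -1.30 at PWK 1, -1.97 at PWK 7 and -1.23 at PWK 14, without a called interaction at either age (adjusted p = 0.668 and 0.343).

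**Figure D5:**
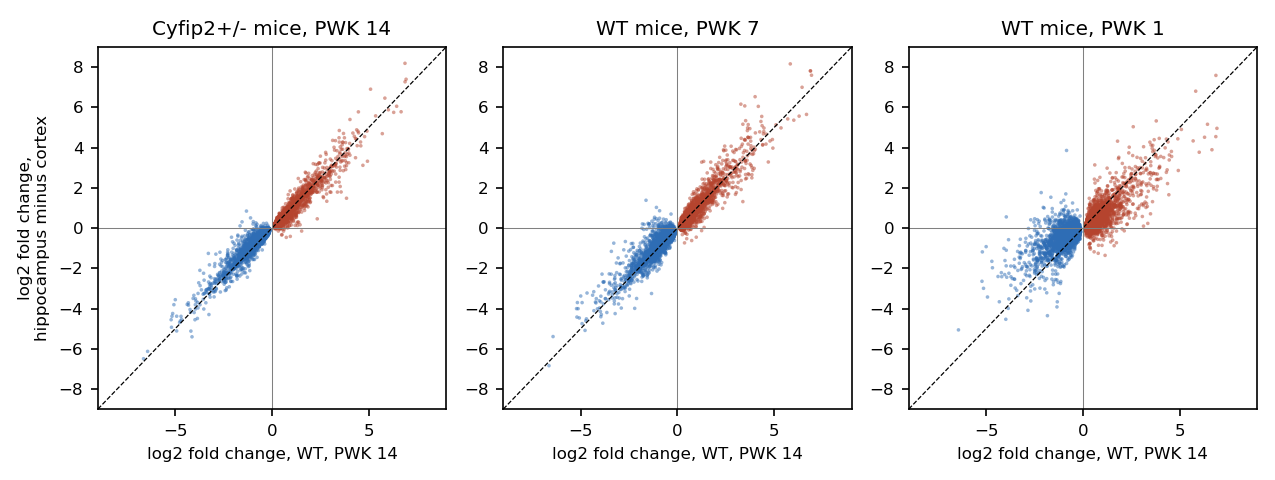
Regional log2 fold change (hippocampus minus cortex) of the genes called in WT mice at PWK 14, on the x axis, against the same measure on the y axis in *Cyfip2*+/- mice at PWK 14 (left), WT mice at PWK 7 (middle) and WT mice at PWK 1 (right). Red and blue points were called higher in the WT hippocampus or cortex at PWK 14, and the dashed line marks equality. The share of hippocampal calls with the same sign is 99.3%, 97.4% and 85.9% from left to right.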

How the data were processed

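RNA of the frontal cortex and hippocampus was sequenced as paired reads from stranded libraries (the kit is named differently in the sample records and the methods). The authors estimated transcript levels with Salmon on GRCm38, summed them to genes and normalized the counts with DESeq2. According to the submitters' processing notes, versions were Salmon 0.11.2, DESeq2 1.19.11 and R 3.6.0. The deposited values are a signal on a linear scale, scaled by library and not whole numbers, so no count test was run. The 18428 gene identifiers were named from GENCODE vM21 (18414 matched). Promoters came from RefSeq on GRCm38.p6.

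Values were tested as log2(value + 1) with limma 3.58.1 in R 4.3.3 (empirical Bayes with a mean trend), for genes at 10 or more in at least 4 of the libraries compared, with Benjamini-Hochberg adjustment over all genes tested and a threshold of 0.05. Main fits used only the libraries compared and no block, and interactions used the 16 libraries of both pairs of groups. The fit was tested on simulated libraries drawn around the fitted means and spreads. Members, gene lists and tests were chosen with earlier results of these data known. Values are given for the 15 protein coding genes with the largest difference each way (mean of at least 200, groups apart), for up to 6 members per list (largest called differences, exceptions, defining genes), for the 5 interaction calls with the smallest p and for the most abundant genes. A few genes that met these rules are not reported here. *Ddx3y* and the genes named last in the closing section were added after their values were seen. Alternatives changed the pseudocount, filter, scaling, weights, block and libraries. Library sums and depths were compared by exact permutation.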

Additional observations from a re-analysis of the deposited data

Results flagged for a closer look

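In 29 of 356 sets of 4 libraries, 1 library stood apart from the other 3 in a reported value, where chance alone would set apart about 1 in 20. Cortex replicate 1 was high in choroid plexus genes, with *Ttr* at 26614 (the others 28.2 to 235), *Kl* at 1029, *Prlr* at 367, *Sostdc1* at 134 and a summed choroid plexus level of 50593. It was also high in *Dsp* at 70.2 (8.0 to 12.2).

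Cortex replicate 3 was high in *Wfs1* at 7929 (3503 to 4134), *Ndst4* at 294 (43.4 to 59.0), *Nos1* at 2391, *Npy2r* at 93.6 and *Th* at 144, and low in *Lamp5* at 4346 (7352 to 7542), *Gabrd* at 1611 and *Trf* at 3634.

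Hippocampus replicate 3 was high in *Gfap* at 20066 (9576 to 10882), *Dsp* at 2652, *Nr3c2* at 8014, *Drd5* at 565, *Olfm4* at 446 and *Igfbpl1* at 100.3. It was low in *Tdo2* at 42.7 (139 to 159), *Neurod1* at 481, *Lamp5* at 792, *Kcnh4* at 61.2 and the summed level of 8 subiculum genes at 5486 (6971 to 7033). Hippocampus replicate 1 was high in the summed level of microglial genes at 14038 (13599 to 13634). Cortex replicate 4 was high in *Dkkl1* at 728 and low in *Agt* at 114 and in the summed level of thalamic genes at 2660.

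The regional difference itself differed with age. The interaction of region with age, PWK 14 against PWK 7, was -1.03 for *Snhg14*, -0.66 for *Slc7a11*, 1.01 for *Lsm11*, 0.56 for *Marcksl1*, 0.46 for *R3hdm2* and -0.81 for *Zbtb20*, and 13 genes were called. Against PWK 1 it was 1.92 for *Myo5b*, -2.35 for *C130074G19Rik*, -1.74 for *Cpne5* and -1.14 for *Serpini1*, and 2252 genes were called.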

How the results depend on the processing

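Of 140 genes given with values, 123 kept their direction and their side of the threshold under each of the 21 alternatives that tested them. Genes below 50 in any library, such as *C1ql2*, were not tested under the filter of 50 in every library. The total of 6084 calls stayed within 1.5 times under every alternative except that without the 4 libraries high in choroid plexus RNA (chosen after seeing the data), which gave 2993 calls, 1198 higher in the hippocampus and 1795 in the cortex, with 431 of the former at 2-fold or more. That fit assumes that the 1 hippocampal library left varies like the cortical ones. With a value of at least 50 required in every library, 283 and 403 genes were called at 2-fold or more, since fewer genes were tested.

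Treating the replicate number as a block gave 6109 calls in WT and 6539 in Cyfip2+/- mice and 11 of 13 oligodendrocyte genes. Same-numbered libraries at PWK 14 deviated together in 3 of 4 pairs (r = 0.260, 0.140 and 0.162, and -0.103 for replicate 4, exact permutation p = 0.0833), and 2 of 4 correlated best with their own number. In WT mice of PWK 7 all 4 pairs deviated together (r = 0.106 to 0.266), as they did at PWK 1 (r = 0.092 to 0.234). At both ages 4 of 4 correlated best with their own number (exact permutation over 24 pairings, p = 0.0417 each). The block reduced the interaction of region with PWK 7 from 13 to 2 genes, leaving out 1 library gave 3 to 28, and 1 model over all 48 libraries gave 99. The interaction with PWK 1 gave 2725 with the block.

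*Camk2a* turned slightly negative with array weights (-0.0018) and in places without 1 library (-0.0304 to 0.0408). *Wfs1* turned positive with array weights (0.0028), without the rich libraries (0.0141), with the choroid plexus covariate (0.19) and without cortex replicate 3 (leaving out 1 library gave -0.20 to 0.19). *mt-Co1* was 0 under quantile normalization, which sets values by rank within a library. It was -0.20 and not called with the choroid plexus covariate, and -0.15 without the rich libraries. The cause of the other changes was not tested. With 4 libraries a region, small differences of variable genes could not be resolved. DESeq2 was not run, since the values are not counts.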

Other observations

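Some genes outside the lists, named after their values were seen, also differed widely between the regions. *Trbc2*, the constant segment of a T cell receptor chain, was 531, 373, 428 and 406 in the cortex against 3.15, 4.52, 4.73 and 3.80 in the hippocampus (log2 fold change -6.43 ± 0.19 (SE), adjusted p = 4.83e-09), and its regional log2 fold change was -6.13 in *Cyfip2*+/- mice of PWK 14, -5.40 at PWK 7 and -5.06 at PWK 1. *Gm26644*, a long intergenic noncoding RNA gene, was 330, 331, 363 and 401 in the hippocampus and 0, 5.01, 6.59 and 0.855 in the cortex (log2 fold change 6.88 ± 0.55 (SE), adjusted p = 3.71e-06), with 7.27, 7.81 and 7.59 in the same mice. *Rtl3*, a gene derived from a retrotransposon, was 137, 157, 98.2 and 106 in the hippocampus and 0, 1.15, 0 and 0 in the cortex (log2 fold change 6.67 ± 0.36 (SE), adjusted p = 1.93e-07). The groups of WT libraries at PWK 14 did not overlap for any of these 3 genes.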
